A study of Danio rerio with 3 samples.

Results

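miR-7 is a microRNA (miRNA) family found from flies to humans, and in these libraries it was read as 6 distinct sequences of 1202 in all. The members were found by name in the deposited table of all libraries: every name holding miR-7 with the family number exactly 7, whatever the arm, end form or species prefix, and no candidate miRNA. Names spelled with lower-case mir, such as dre-mir-7a-3-p3, fell outside this rule and were not counted. Of the 7 rows so named, 2 held the same sequence, which was counted once. The family was selected on its normalised reads in these same libraries, since it was proposed with earlier results of them in view, so its levels and ratios are given as a description, with no test.

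The libraries were small RNA of whole 7-day-old F1 larvae of wild-type (WT) zebrafish, strain AB. Their parents (F0) had been kept for 90 days, from 6 hours after fertilisation, in water with 0, 6.25 or 12.5 mg/L of 6 β-diketone antibiotics mixed in equal weights, namely oxytetracycline, chlortetracycline, doxycycline, enrofloxacin, ciprofloxacin and ofluoxacin (spelled as in the labels). Their offspring are called control, low-dose and high-dose larvae here, although only the parents' exposure is labelled. Each group had 1 library from larvae whose number the sources used here do not give, and nothing below has a replicate check. The count totals were between 4534557 and 6041242 per library.

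A miRNA is cut from a hairpin RNA with a 5p and a 3p arm, of which usually 1 is kept as the guide strand. It recognises messenger RNAs chiefly through its seed, bases 2 to 8 counted from the 5′ end. In mammals, miR-7 is enriched in neurosecretory neurons, the pituitary and pancreatic islets, and in mouse beta cells it restrains insulin secretion. Its level in mouse brain is held down by the long noncoding RNA Cyrano (oip5-as1 in zebrafish), which pairs with miR-7 and directs its decay. In whole larvae the cells that made the reads are not known, and fewer cells of a type and less RNA per cell cannot be told apart.

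The 6 sequences are shown because they differ at the base and the ends on which the results turn. They are printed as deposited, with T for U, and capitals mark the seed and, in the 5p arm, base 10. In the names, R+1 means 1 base more at the 3′ end than the annotated form, and a substitution gives the annotated base, its position and the base read.
miR-7a: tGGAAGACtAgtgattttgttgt
miR-7a R+1: tGGAAGACtAgtgattttgttgtt
miR-7a R+1 A10T: tGGAAGACtTgtgattttgttgtt
miR-7-5p R+3 (green anole name): tGGAAGACtAgtgattttgttgttca
miR-7b R+2 G11A T18G: tGGAAGACtTatgatttggttgt
miR-7a-7-3p R+1 (salmon name): cAACAAGTcacagtctacctca

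Of the members, 5 are 5p sequences and 1 is a 3p sequence, and 4 carry zebrafish names and 2 names from other species. All 5 of the 5p sequences share the seed GGAAGAC, whose perfect match in a target reads GTCTTCC. No other sequence among the 1202 had that seed at bases 2 to 8. The 3p sequence has the seed AACAAGT, found in no other sequence of the table. The end forms and the A10T change lie outside the seed, so they leave the seed match of the 5p arm the same.

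The sequence deposited as miR-7a R+1 A10T has the bases of miR-7b. Undoing the marks in the deposited name of the miR-7b row (2 added bases, G11A and T18G) gives an annotated miR-7b of 21 nt, which over its length differs from miR-7a by A10T alone.
miR-7b rebuilt from its deposited name: tGGAAGACtTgtgattttgtt
The A10T sequence begins with exactly these bases and runs 3 nt further. It is therefore described here as the A10T sequence, with T at base 10 as in miR-7b, while the row named miR-7b held less than 1 read per library. Which hairpin its reads came from cannot be told from the table. The RefSeq gene table of zebrafish (assembly GRCz12tu) lists 3 miR-7a genes, mir7a-1, mir7a-2 and mir7a-3, and 1 miR-7b gene, dre-mir-7ba. The miR-7b gene lies within the span of hnrpkl, a gene related to hnrnpk, mir7a-1 lies within that of det1, and the other miR-7a genes overlap no named coding gene. In humans, 1 of the miR-7 genes lies in an intron of HNRNPK, which encodes an RNA-binding protein.

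The family took 1.32% of counts in control larvae (95% exact binomial interval 1.31 to 1.33), 1.33% in low-dose larvae (1.32 to 1.34) and 0.918% in high-dose larvae (0.911 to 0.926). Intervals cover counting error only, because PCR copies are not independent molecules and larvae differ. On the authors' normalised scale, in which each count is multiplied by 1 factor per library, the family summed to 70417 reads in control larvae, 69187 in low-dose larvae and 39332 in high-dose larvae. The control and 6.25 mg/L libraries were thus close to each other, and the 12.5 mg/L library was the low one.

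miR-7a, the annotated 23-nt form, had 36196 normalised reads in control larvae, 33345 in low-dose larvae and 17925 in high-dose larvae. It ranked 29th, 32nd and 48th by count among the 1202 sequences in the same order. Its ratio was 0.495 between 12.5 and 0 mg/L (interval 0.487 to 0.504), 0.538 between 12.5 and 6.25 mg/L (0.529 to 0.546) and 0.921 between 6.25 and 0 mg/L (0.907 to 0.936). The step between the doses was therefore larger than that between the lower dose and control.

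miR-7a R+1, which is 24 nt long, had 20448 normalised reads in control larvae, 21551 in low-dose larvae and 10286 in high-dose larvae. Here the 6.25 mg/L library stood slightly above control on the authors' scale (ratio 1.05, interval 1.03 to 1.08), an order that depended on the scaling. The 12.5 mg/L library was again lowest, with a ratio of 0.503 to control (0.492 to 0.514) and 0.477 to 6.25 mg/L (0.467 to 0.488). Both end forms of miR-7a were thus about as much lower in high-dose larvae.

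The A10T sequence, also 24 nt long, had 13685 normalised reads in control larvae, 14202 in low-dose larvae and 11016 in high-dose larvae. It was also lowest in high-dose larvae, but its ratio to control was 0.805 (0.786 to 0.825) and that to 6.25 mg/L 0.776 (0.758 to 0.794), while 6.25 against 0 mg/L gave 1.04 (1.01 to 1.06). As a share of each library's counts it was 0.257% in high-dose larvae and 0.256% in control larvae, and those intervals overlapped (0.253 to 0.261 and 0.251 to 0.261).

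The other members were scarce. The 26-nt miR-7-5p R+3, which ends 2 bases beyond miR-7a R+1, had 35 counts in control larvae, 29 in low-dose larvae and 44 in high-dose larvae, and the interval of each of its ratios included 1. The 3p sequence had 40, 58 and 105 counts, or 47.2, 59.3 and 74.4 normalised reads, in the same dose order. Its ratio between 12.5 and 0 mg/L was 1.58 (1.09 to 2.33), on the other side of 1 from the 5p sequences, while 12.5 against 6.25 mg/L (1.26, 0.903 to 1.76) and 6.25 against 0 mg/L (1.26, 0.825 to 1.93) included 1. The row named miR-7b held 0.333, 0.667 and 0.167 reads, under the filter used below, and no ratio is given for it.

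**Figure D1:**
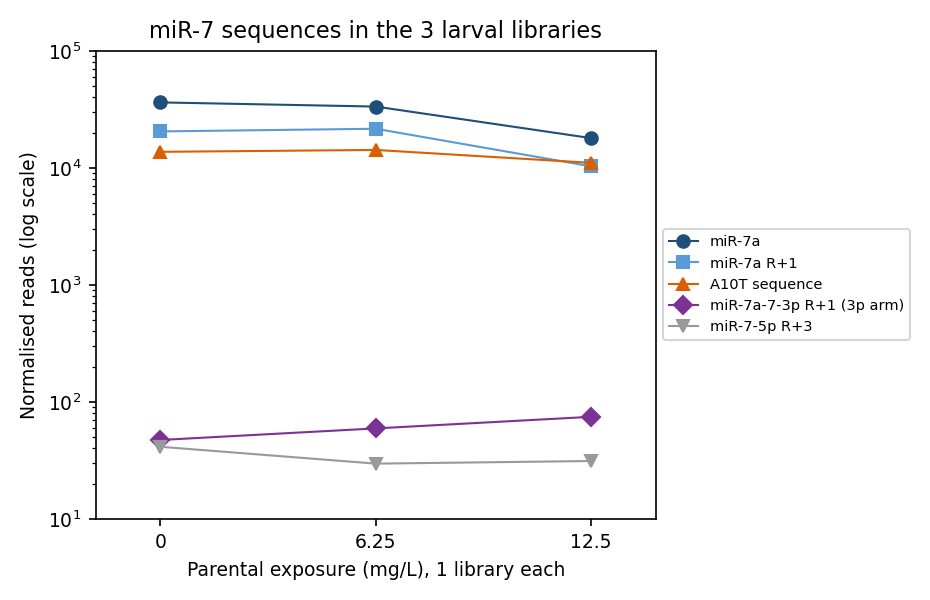
Normalised reads (log scale) of the 5 miR-7 sequences with a mean of at least 10, in the libraries of parents at 0, 6.25 and 12.5 mg/L; each point is 1 library. miR-7a (36196, 33345 and 17925) and its R+1 form are lowest at 12.5 mg/L, where the A10T sequence (11016) lies above miR-7a R+1 (10286).

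Most of the difference in the family lay in the forms with A at base 10. Those 3 forms of miR-7a summed to 56685 normalised reads in control larvae, 54925 in low-dose larvae and 28242 in high-dose larvae, a ratio of high-dose to control of 0.498 (0.492 to 0.505). They made up 91.5% of the family's difference in normalised reads between 12.5 and 0 mg/L, with 58.8% from miR-7a and 32.7% from miR-7a R+1. The A10T sequence made up 8.59%. Between 12.5 and 6.25 mg/L the A-at-10 forms made up 89.4% and the A10T sequence 10.7%. These percentages hold on the authors' scale and depend on the scaling. As shares of library counts, the A-at-10 forms took 1.06% in control and 0.659% in high-dose larvae, and the A10T sequence 0.256% and 0.257%.

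Shares within the 5p arm need no scaling between libraries. The A10T sequence took 19.4% of 5p counts in control larvae (19.1 to 19.8), 20.5% in low-dose larvae (20.2 to 20.9) and 28.1% in high-dose larvae (27.7 to 28.4). The 12.5 mg/L library stood above both others, which were close to each other. Of the 24-nt forms alone, which differ by that base only, the A10T sequence had 0.669 reads per read of miR-7a R+1 in control larvae (0.654 to 0.685), 0.659 in low-dose larvae (0.645 to 0.673) and 1.07 in high-dose larvae (1.05 to 1.10). The order of both sequences was thus turned round in the 12.5 mg/L library only.

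**Figure D2:**
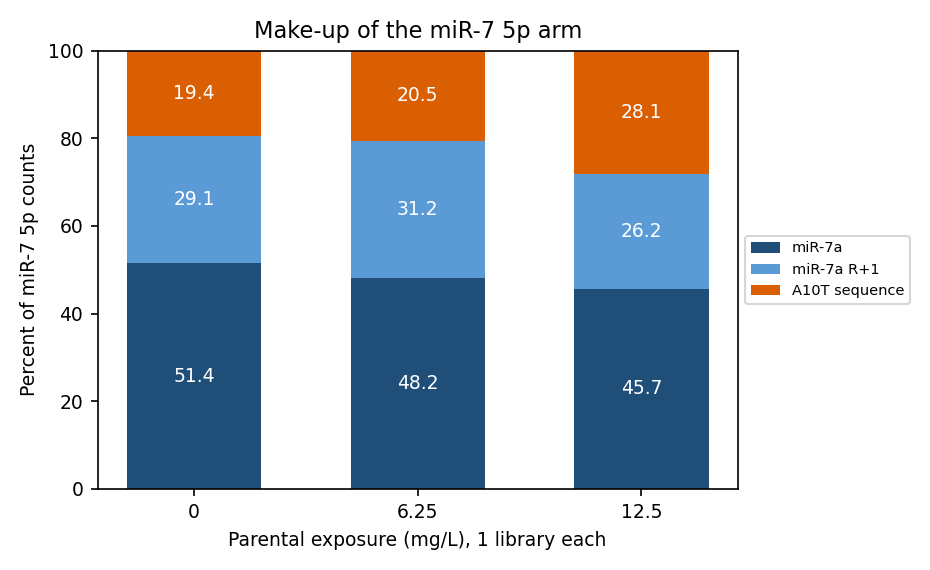
Stacked bars of the percent of miR-7 5p counts taken by miR-7a, miR-7a R+1 and the A10T sequence in the library of each parental dose. The A10T share is 19.4% in control, 20.5% in low-dose and 28.1% in high-dose larvae; the remaining 5p sequences are too scarce to be seen.

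The pair was next set beside other sequences 1 base apart, as a description, since it was already seen to differ. Among sequences with a mean of at least 1000 normalised reads, 17 pairs of equal length differed by 1 base at position 9 or later, a set defined after the data were seen. The log2 ratios of 12.5 to 0 mg/L differed by 0.68 between miR-7a R+1 and the A10T sequence, and by a median of 0.23 over the 17 pairs. Of the other 16 pairs, 2 differed by more, and both had the change near the 3′ end: miR-26a-5p with its form substituted at base 21 (0.78) and miR-9-5p R-1 with its form substituted at base 22 (2.02). The next below, 2 forms of miR-9-5p with different substitutions at base 23, differed by 0.66, about as much as the miR-7 pair. Between 6.25 and 0 mg/L the miR-7 pair differed by 0.02, and 13 of the other pairs differed by more.

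Taken one by one, sequences with a substitution in their name had higher ratios of 12.5 to 0 mg/L than the others. Of 124 substituted sequences with a mean of at least 10 normalised reads, 35 were higher by 2-fold or more than in control and 2 were lower by as much (median log2 ratio 0.31), against 16 and 18 of 347 unsubstituted ones (median 0.0042). Between 6.25 and 0 mg/L the median log2 ratios were close, at 0.098 for substituted and 0.11 for unsubstituted sequences. Summed, the substituted sequences were lower, with 559524 normalised reads in high-dose larvae and 651563 in control larvae (log2 ratio -0.22). The unsubstituted ones were lower by more, with 3722353 and 4696674 (-0.34). Substituted sequences took 12.2% of counts in control larvae, 13.6% in low-dose larvae and 13.1% in high-dose larvae. The A10T sequence, with a ratio of 0.805, was below control. In 7 of the 17 pairs 1 sequence was named as substituted, and it had the higher ratio in 5 of them, the miR-7 pair included. In the pairs of miR-152 with miR-148 and of miR-153b-3p with miR-153a-3p, the differing base was not the substituted one. The substituted miR-26a-5p and miR-153b-3p forms, named after their values were seen, had the lower ratio. The part of this in the A10T result was not tested.

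The 3′ ends of miR-7a hardly differed between 12.5 and 0 mg/L. miR-7a R+1 took 36.1% of miR-7a 5p counts in control larvae (35.6 to 36.5), 39.2% in low-dose larvae (38.8 to 39.7) and 36.4% in high-dose larvae (35.9 to 36.9), so the low-dose library was the one apart. The annotated form took 63.9%, 60.7% and 63.5% in the same order. On the log2 scale the ratio of the longer to the annotated form differed by 0.02 between 12.5 and 0 mg/L. That was the smallest difference among the 6 miRNA arms with both forms at a mean of at least 100 normalised reads, whose median was 0.13 and highest 0.66 (miR-430b-3p, named after its value was seen). All 6 were above 0. Between 6.25 and 0 mg/L the miR-7a value was 0.19, within the range of the 6 arms (-0.32 to 0.47).

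The abundant form with T at base 10 was 24 nt long, whereas with A at base 10 the 23-nt form was the larger. The 3p sequence took 0.0670% of the family's counts in control larvae (0.0479 to 0.0912). Its share was 0.0856% in low-dose larvae (0.0650 to 0.111) and 0.189% in high-dose larvae (0.155 to 0.229). Per read of the 3p sequence there were 767 reads of miR-7a in control larvae (563 to 1074), 563 in low-dose larvae (435 to 741) and 241 in high-dose larvae (199 to 295). The share of this sequence therefore differed beyond counting error in high-dose larvae, from a base of 40 to 105 counts. It is not the share of the whole arm. By its name, dre-mir-7a-3-p3 is also from the 3p side of a miR-7a hairpin, but it was not counted. That sequence had the higher mean of normalised reads. Its log2 ratios were 0.43 for 6.25 against 0 mg/L, 0.36 for 12.5 against 0 mg/L and -0.06 for 12.5 against 6.25 mg/L.

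The ratios were next set beside those of all sequences. A log2 ratio was taken with a pseudocount of 1, and sequences with a mean of at least 10 normalised reads were kept, 471 in all and 5 of the 6 miR-7 sequences. Between 12.5 and 0 mg/L, 1 of these 5 was at least 2-fold lower, where 4.25% of all sequences were, and 0 were at least 2-fold higher (10.8%). The limit fell between the end forms: miR-7a was just past it, with a log2 ratio of -1.01, and miR-7a R+1 just short of it at -0.99. In that comparison 18 of the 471 sequences had a lower ratio than miR-7a and 20 a lower one than miR-7a R+1, while 115 had a lower one than the A10T sequence (-0.31). The median over all sequences was 0.08, with scarce and abundant ones weighted alike. Summed normalised reads past the filter had lower ratios, at -0.22 for substituted and -0.34 for unsubstituted sequences.

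Between 12.5 and 6.25 mg/L, 1 of the 5 was at least 2-fold lower (3.4% of all sequences) and 0 were at least 2-fold higher (11%). The lower one was miR-7a R+1 (-1.07), with miR-7a at -0.90. The A10T sequence had -0.37 and the 3p sequence 0.32. Between 6.25 and 0 mg/L, 0 of the 5 passed 2-fold in either direction (2.55% of all sequences in each), and the log2 ratios were -0.12 for miR-7a, 0.08 for its R+1 form and 0.05 for the A10T sequence. The comparisons share libraries, so they do not support each other. Any count of 0 or 1 in 5 is too small to be read against these shares.

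**Figure D3:**
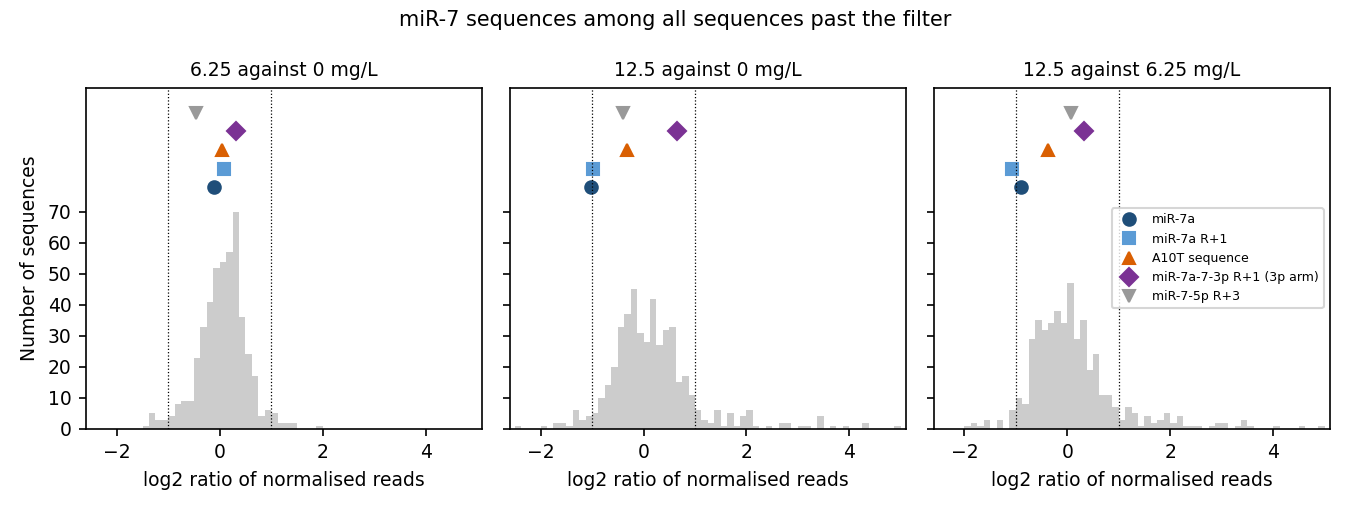
Histograms of the log2 ratio of normalised reads over 471 sequences in each pair of libraries, with the 5 miR-7 sequences as coloured symbols placed above the bars at their own ratios (their height has no meaning) and dotted lines at 2-fold. At 12.5 against 0 mg/L, miR-7a (-1.01) and miR-7a R+1 (-0.99) lie at the lower line and the 3p sequence (0.65) on the other side of 0.

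The size of these ratios depended on the scaling of the 12.5 mg/L library. With all libraries scaled to equal totals, the log2 ratio of 12.5 to 0 mg/L was -0.69 for miR-7a, -0.67 for miR-7a R+1 and 0.0076 for the A10T sequence. With scaling by the median of ratios the values were -1.13, -1.11 and -0.43. Both end forms of miR-7a were thus below 0 under each scaling, whereas the A10T sequence lay close to 0 under equal totals. The gap between miR-7a R+1 and the A10T sequence, 0.68, is the same under each. Between 6.25 and 0 mg/L, miR-7a R+1 had 0.08 on the authors' scale, 0.11 under equal totals and -0.0059 under the median of ratios.

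**Figure D4:**
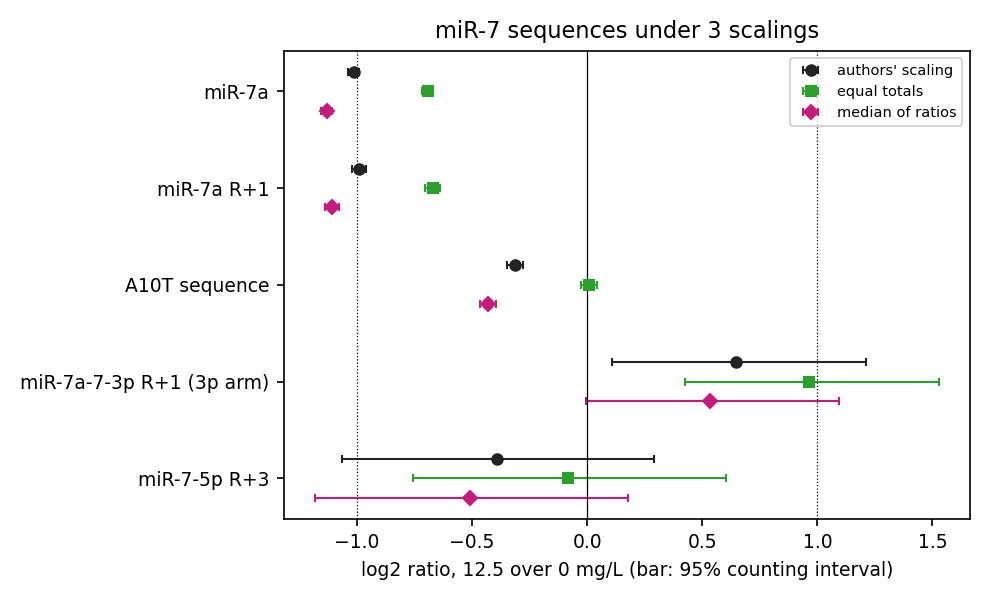
Log2 ratio of 12.5 over 0 mg/L for 5 miR-7 sequences under the authors' scaling, equal totals and the median of ratios; bars are 95% counting intervals and dotted lines mark 2-fold. miR-7a lies between -1.13 and -0.69, and the A10T sequence between -0.43 and 0.0076.

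In the authors' deposited table for 12.5 against 0 mg/L, the Fisher p-value was listed as 0 for miR-7a and for miR-7a R+1. The authors' deposited table gave a Fisher p-value of 0.513 for the A10T sequence, with a fold of 0.805, and 2.32e-04 for the 3p sequence. The fold of 0.805 is of normalised reads, with a counting interval of 0.786 to 0.825. The A10T shares of library counts were 0.256% in control and 0.257% in high-dose larvae. Which scale the Fisher test used is not known here. These p-values compare 2 libraries and not the conditions.

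Other miRNAs of the tissues in which miR-7 is known were set beside it, as families summed over their sequences. The 10 families listed as neuronal did not share the low value in high-dose larvae: 4 were below control and 6 above. The log2 ratios lay between -0.43 (miR-219, of myelin-forming glia) and 0.68 (miR-128). The others below control were miR-218 (-0.31), miR-9 (-0.29) and miR-138 (-0.05). Among those above, miR-124, a miRNA of neurons, had 18324 normalised reads in high-dose larvae and 12790 in control larvae (0.52). The rest above control were miR-212 (0.49), miR-137 (0.35), miR-153 (0.20) and miR-132 (0.07). Summed over all 10 families, the log2 ratio was -0.085. That sum rested largely on miR-9, with 289585 of 475577 normalised reads in control larvae and 236041 of 448290 in high-dose larvae. This list mixes families of neurons, of neural progenitors (miR-9) and of glia (miR-219), so its counts and sum do not stand for neurons alone. Of 83 sequences of this list 50 passed the filter, with 7 higher by 2-fold or more, 0 lower by as much, 19 below 0 and a median of 0.21. Over all 471, 10.8% were higher, 4.25% lower and 45.6% below 0, with a median of 0.08. Of the 7 higher ones, substituted forms of miR-132-5p (3.44), miR-124-3p (1.73) and miR-9-5p (1.66 and 1.47) carried the change in their names. The unsubstituted ones were miR-124-3p R+5 (2.12), miR-124-3p R+1 (1.23) and miR-137-3p R+1 (1.08). The count below control in high-dose larvae depended on the scaling, at 1 of 10 with equal totals and 5 of 10 with the median of ratios. Between 6.25 and 0 mg/L the 10 sums lay between 0.06 and 0.63, beside a median of 0.11 over all 471 sequences, of which 40.6% were below 0, and with the median of ratios 1 of the 10 (miR-9) was below 0.

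The 3 most abundant sequences of the neuronal list differed among themselves in high-dose larvae. miR-9-5p R-1, of neural progenitors, had 137620 normalised reads in high-dose larvae and 202725 in control larvae, and miR-128-3p, under a salmon name, 69014 and 43037. miR-9-3p R+1 with 2 substitutions had 38198 in high-dose larvae and 32516 in control larvae.

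The 6 families listed as endocrine and pancreas were miR-375, miR-184, miR-216, miR-217, miR-29 and miR-24. This list mixes families of islets, of the exocrine pancreas and others, so its counts do not stand for endocrine or pancreas cells alone. miR-24 and miR-29, with 7 sequences each, are not taken here as marks of the pancreas. In high-dose larvae 2 of the 6 were below control and 4 above, with 1 below under equal totals and 4 below under the median of ratios. miR-217 of the exocrine pancreas was the lowest, with 9457 normalised reads in high-dose larvae and 15326 in control larvae (-0.70), while its neighbour in that tissue, miR-216, had 42193 and 39529 (0.09). miR-375, the main miRNA of islet cells, had 2473 normalised reads in control larvae, 3108 in low-dose larvae and 2808 in high-dose larvae. Of 26 sequences 17 passed the filter, with 0 at least 2-fold different in high-dose larvae, 6 below 0 and a median of 0.01. Over all 471 sequences 10.8% were at least 2-fold higher, 4.25% lower by as much and 45.6% below 0, with a median of 0.08. The 3 most abundant were miR-216b (39561 in high-dose larvae and 36934 in control larvae), miR-217 R+1 (9438 and 15301) and miR-29b R+1 (5201 and 4069).

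**Figure D5:**
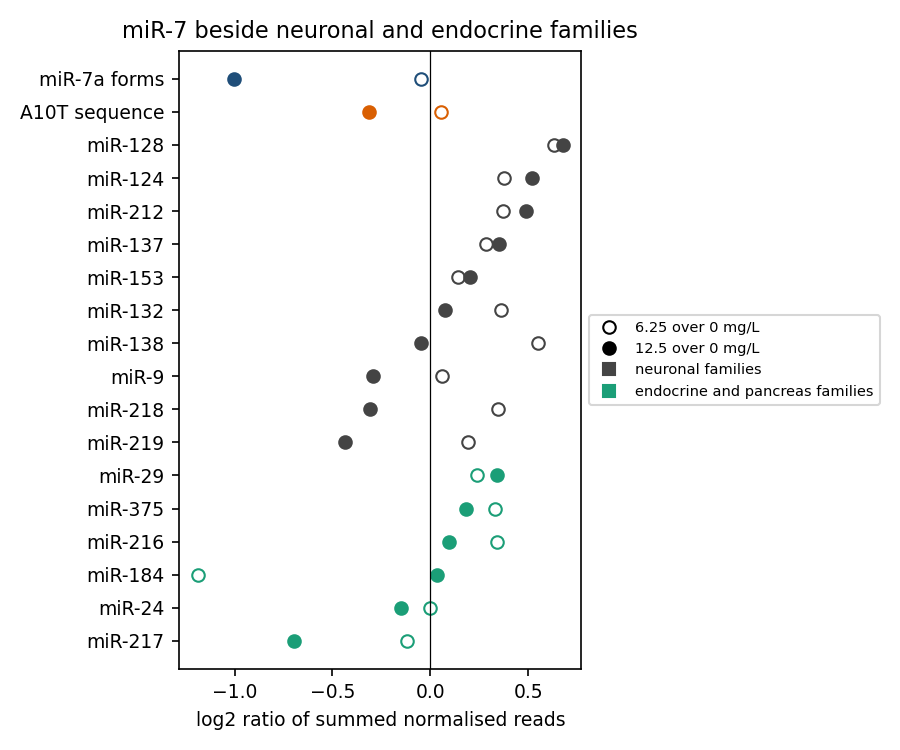
Log2 ratios of summed normalised reads, 6.25 over 0 mg/L (open) and 12.5 over 0 mg/L (filled), for the miR-7a forms, the A10T sequence, 10 families listed as neuronal (dark) and 6 listed as endocrine and pancreas (green). The miR-7a forms (-1.01) lie below each of these families at 12.5 mg/L, the nearest being miR-217 (-0.70). The families are summed over all their sequences, whereas the miR-7a forms leave out the A10T sequence. The whole miR-7 family, not drawn, had -0.84.

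The sums of families that mark other tissues differed more widely, but through the substituted names of miR-1 and miR-206 and the scarce miR-451. Sums of unsubstituted sequences alone lay between -0.52 (miR-122) and 0.53 (miR-206), miR-451 left aside. The neuronal families, with all names, lay between -0.43 and 0.68. The muscle family miR-1 held 6 sequences, all with a substitution in the name, and summed to 5258 normalised reads in high-dose larvae, against 493 in control larvae (log2 ratio 3.41). In the related miR-206, 4 substituted sequences summed to 1708 and 242 (2.81), whereas the 1 unsubstituted sequence, miR-206-5p, had 133 and 92.0 (0.53). The most abundant sequence of each of these families carries the change at base 3, inside the seed. In miR-133, also of muscle, the 4 unsubstituted sequences had 117947 normalised reads in high-dose larvae and 114106 in control larvae (0.05). In low-dose larvae miR-1 had 556 reads and miR-206 296. All 50 sequences of the 9 families, of which 30 passed the filter, summed to 526603 normalised reads in control larvae, 476181 in low-dose larvae and 436042 in high-dose larvae. Between 12.5 and 0 mg/L the liver family miR-122 had a log2 ratio of -0.52, the skin families miR-203 and miR-205 -0.40 and -0.47, and the red blood cell family miR-144 -0.48. The endothelial family miR-126 had 0.04. miR-451, of red blood cells, was near 0 in each library (1.18, 1.02 and 3.54 normalised reads from 0 to 12.5 mg/L). The 3 most abundant sequences of these families were miR-205-5p (124848 in high-dose larvae and 173226 in control larvae), miR-203b-3p (106084 and 140029) and miR-133a-3p L-1R+1 (115249 and 111353). Of the 30 sequences past the filter, 6 were higher by 2-fold or more, 0 lower by as much and 9 below 0, with a median of 0.37. Over all 471 sequences 10.8% were higher, 4.25% lower and 45.6% below 0, with a median of 0.08. All 6 of the higher ones had a substitution in the name, so no unsubstituted sequence of these families was 2-fold higher. The part of tissue make-up in the miR-7 values was not tested.

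The sequences most like miR-7a were sought among 189 zebrafish-named ones without a substitution and with a mean of at least 100, by the distance of their log2 ratios of 6.25 and 12.5 to 0 mg/L over 3 libraries. Nearest was its own R+1 form (distance 0.20). The next were miR-181b-5p R+1 (0.21) and R+2 (0.27), miR-103 (0.28), miR-459-3p (0.28) and miR-217 R+1 (0.32). miR-181b-5p R+1 had 152054 normalised reads in control larvae, 136304 in low-dose larvae and 86852 in high-dose larvae, and miR-103 had 25692, 24203 and 15444. miR-459-3p had 1286, 1201 and 774. In each of these 5 sequences the log2 ratio of 12.5 to 0 mg/L was nearer to 0 than that of miR-7a, between -0.81 and -0.70.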

How the data were processed

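Small RNA of 3 libraries, 1 per group, was read as 36 bp single-end reads on an Illumina HiSeq (TruSeq small RNA kit), per the labels' protocols. The build was Zv9, per the submitters' processing notes; the aligner, miRNA release and counting rule stay unnamed in the sources used here. Each of the 4 deposited tables, 1 line of which was empty, holds per sequence the authors' estimated counts (expected counts; 66.7% of the miR-7 values were whole, tolerance 1e-09). The authors also deposited a normalised signal per library. Dividing it by the counts shows 1 factor per library: 1.18 in control, 1.02 in low-dose and 0.709 in high-dose larvae. The authors' deposited tables also give a fold ratio, its log2 and p-values for pairs of libraries, per the file headers. No miR-7 value differed between tables.

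Rows of the same sequence were counted once (1430 rows, 1202 sequences). Log2 ratios used the normalised values and a pseudocount of 1, which understates differences of scarce sequences. Intervals are exact (Clopper-Pearson, 95%) on rounded counts. With 1 library per group no test was run. The ratio and interval code was tested on simulated libraries. All members of the miR-7 family under the naming rule are named, and dre-mir-7a-3-p3 is named as left out. Other names are the 5 nearest in pattern, the 3 most abundant of each list and families of the lists. Any further sequence or pair was picked after its values were seen, as was the choice of families to describe. Members and lists were chosen with earlier results of these data known. The alternatives were other scalings, pseudocounts of 0.5 and 10, no filter, zebrafish names only, no substituted sequences and repeated rows summed; Python 3.11.15, numpy 2.4.6, pandas 2.3.3 and scipy 1.17.1 were used.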

Additional observations from a re-analysis of the deposited data

How the results depend on the processing

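Pseudocounts of 0.5 and 10, zebrafish names only and no filter on low values left the values for miR-7 within their counting intervals. They also left the counts as they were. With zebrafish names only, no 3p sequence remains among the members, since dre-mir-7a-3-p3 lies outside the naming rule. The scaling moved most ratios. In the order 6.25 against 0, 12.5 against 0 and 12.5 against 6.25 mg/L, equal totals gave log2 ratios of 0.013, -0.52 and -0.53 for the family, 0.012, -0.52 and -0.53 for the 5p arm, -0.080, -0.69 and -0.61 for miR-7a, -0.0073, -0.68 and -0.68 for the forms with A at base 10, and 0.092, 0.0076 and -0.084 for the A10T sequence. The median of ratios gave -0.11, -0.96 and -0.85 for the family, -0.11, -0.96 and -0.85 for the 5p arm, -0.20, -1.13 and -0.93 for miR-7a, -0.13, -1.12 and -0.99 for the A-at-10 forms, and -0.028, -0.43 and -0.40 for the A10T sequence. The authors' scaling gave -0.03, -0.84 and -0.81 for the family. Without substituted sequences, which leaves out the A10T sequence, the family had -0.045, -1.0 and -0.96 and the 5p arm -0.045, -1.01 and -0.96. The share of the counted 3p sequence at 12.5 mg/L was then 0.263%. Summing repeated rows, which counts miR-7a R+1 again, gave -0.0020, -0.87 and -0.87 for the family. The number of sequences at least 2-fold lower was 1 at 12.5 against 0 mg/L, and 0 with equal totals and 2 with the median of ratios; at 12.5 against 6.25 mg/L it was 1, and 0 with equal totals. For end forms of all arms, adding pairs other than R+1 (13 pairs, chosen after the data were seen) moved the median difference between 12.5 and 0 mg/L to 0.02, against 0.13. Whether added 3′ bases match the hairpin was not run, for want of hairpin sequences here. No paired analysis was possible because each group has 1 library. Depth limits the 3p sequence, at 40 to 105 counts, and miR-7-5p R+3, at 29 to 44.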
